A study of Homo sapiens with 9 samples.

Results

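A set of 10 genes around the target of the deruxtecan payload were examined in residual xenografts: the 6 human topoisomerases (TOP1, TOP1MT, TOP2A, TOP2B, TOP3A and TOP3B), the phosphodiesterases TDP1 and TDP2, PARP1 and SLFN11. They were chosen by gene symbol, and all 10 were among the 16008 genes listed in both count tables of the series. RNA-Seq had been performed on subcutaneous tumors of PC3, a cell line from a human prostate cancer metastasis. The tumors grew in male NSG mice, which lack T, B and NK cells but keep myeloid, stromal and endothelial cells of their own. There were 3 libraries per group, each with its own animal code. The PBS group received vehicle. The treated groups received 5 mg/kg of P-DXd (patritumab deruxtecan, directed at HER3) or T-DXd (trastuzumab deruxtecan, directed at HER2) weekly, and tumors were taken at the end of the experiment. The series record gives mice of 11 weeks, a starting volume of 90 mm3 and 5 cycles for all groups, and the study's methods differ from it in these 3 points. Titles and treatment fields name opposite conjugates for all 6 treated libraries. The treated groups are therefore named after their titles (P-DXd-titled, T-DXd-titled), and which conjugate each group received is unresolved. The comparison of all 6 treated libraries with PBS does not depend on this.

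Topoisomerases relieve the twisting of DNA by cutting it and holding the cut end on a tyrosine until it is resealed. TOP1 cuts 1 strand ahead of polymerases, TOP1MT does so in mitochondria, TOP2A and TOP2B pass a duplex through a double-strand cut, and TOP3A and TOP3B pass single strands. Deruxtecan releases DXd, a camptothecin-type inhibitor that holds TOP1 on its cut. TDP1 removes TOP1 from the 3′ end and TDP2 removes TOP2 from the 5′ end, PARP1 senses the break, and SLFN11 blocks stressed replication forks, which makes cells sensitive to such drugs.

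TOP2A and TOP2B are shown first by the DNA before their transcription starts, because they catalyse the same reaction and had the largest and the smallest difference from PBS among these genes. TOP2A is known as a gene of dividing cells with a transcript that peaks late in the cycle, whereas TOP2B is made in dividing and resting cells. Both sequences are from RefSeq on GRCh38.p14, 5′ to 3′ on the minus strand, at chr17:40417897-40418146 for TOP2A and chr3:25664910-25665157 for TOP2B. Capitals mark CCAAT boxes (here always the reverse complement ATTGG) and TTTGAA or its reverse complement TTCAAA, the core of the cell cycle genes homology region.
TOP2A: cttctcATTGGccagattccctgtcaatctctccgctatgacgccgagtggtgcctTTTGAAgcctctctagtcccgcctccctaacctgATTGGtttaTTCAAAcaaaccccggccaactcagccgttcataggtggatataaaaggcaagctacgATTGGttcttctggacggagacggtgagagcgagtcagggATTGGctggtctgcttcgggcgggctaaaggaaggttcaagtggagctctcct
TOP2B: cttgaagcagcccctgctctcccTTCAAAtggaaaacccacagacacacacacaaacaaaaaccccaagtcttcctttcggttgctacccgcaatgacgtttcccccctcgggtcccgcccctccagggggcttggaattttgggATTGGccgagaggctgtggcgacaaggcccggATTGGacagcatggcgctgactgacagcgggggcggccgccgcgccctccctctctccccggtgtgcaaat

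The TOP2A sequence held 4 CCAAT boxes, which end 240, 156, 89 and 49 bases before the start, and 2 TTTGAA matches, 189 and 146 bases before it. The TOP2B sequence, shown without 2 bases that fall in an annotated exon, held 2 CCAAT boxes at 101 and 69 bases and 1 TTTGAA match at 222 bases. Over 35116 RefSeq promoters searched on both strands in the 250 bases before the start, 32.0% held at least 1 CCAAT box and 0.874% held at least 4. At least 1 TTTGAA match was present in 13.3% of promoters and at least 2 in 1.72%. RefSeq entries were found for 9 of the 10 genes, with TOP2B represented by 2 starts. Of these 10 entries, 3 held a CCAAT box (TOP2A, TOP2B and SLFN11) and 3 held a TTTGAA match (TOP2A, TOP2B and TDP1). For TOP2B this was the start shown above, and its other start, not shown, held neither. An E2F-type motif, TTTNNCGC or its reverse complement GCGNNAAA, was present in 5.92% of promoters and, among these entries, in that of SLFN11. None of the motifs marked for TOP2A and TOP2B overlapped another.

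Total counts were 54481702 to 125538606 per library, and every PBS library was deeper than every treated one. Each of the 10 genes had between 903 and 73550 counts in a library. Levels are CPM, counts scaled to TMM-adjusted library size. PBS replicate 1 stood apart from PBS replicates 2 and 3, with a chi-square statistic of the counts of 316 and 388 per gene, against 37.5 between the other two. It was the highest PBS library for each of these genes except TOP2B. The mean log2 CPM of 16 proliferation genes was 0.44 above the PBS mean in this library and 0.17 and 0.27 below it in the others, and that of 10 fibroblast markers was 0.70 above and 0.34 and 0.35 below. P-DXd-titled replicate 2 stood apart by muscle RNA, with a summed level of 2940 CPM over 6 skeletal muscle genes against 0.878 to 179 CPM in the other libraries. The PC3 label was checked on KRT8, KRT18, KRT19, EPCAM, VIM and CD44, which had at least 262 CPM in every library. KLK2 and KLK3, made by luminal prostate cells, were not among the listed genes.

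The first question was how much RNA of each gene the vehicle tumors contained. Compared per kilobase of exon, PARP1 was the most abundant in PBS at 153 ± 21.5 CPM per kb (SD, n = 3), followed by TOP1 at 63.1 ± 9.28. TOP2B (35.3 ± 0.752), TOP2A (29.8 ± 8.68), TOP1MT (26.6 ± 2.68) and TDP2 (26.2 ± 2.59 CPM per kb) came next, and each overlapped its neighbor in this order. TDP1 (7.45 ± 1.94) and SLFN11 (7.43 ± 0.923 CPM per kb) did not differ beyond their spread, nor did TOP3A (5.18 ± 0.378) and TOP3B (5.17 ± 0.647 CPM per kb), which lay below SLFN11 in every PBS library. In T-DXd-titled tumors the order was PARP1 (87.4), TOP1 (50.4), TOP2B (37.4), TDP2 (31.9) and TOP1MT (14.8), with TOP3A, TDP1, SLFN11, TOP3B and TOP2A between 3.28 and 4.58 CPM per kb. In P-DXd-titled tumors the first 5 were in the same order, and TOP2A was 5.18 ± 0.612 CPM per kb.

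**Figure D1:**
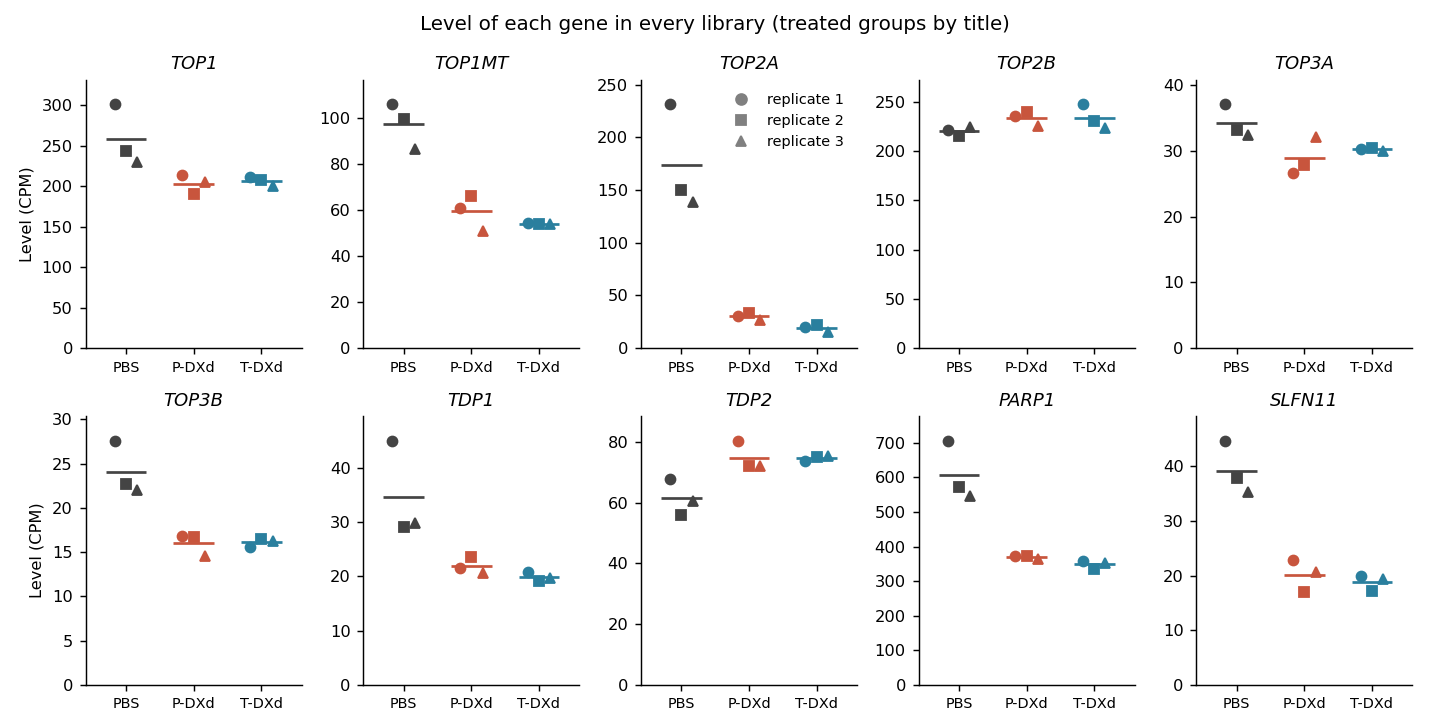
Level of each gene in CPM (y axis, from 0) in the 3 PBS, 3 P-DXd-titled and 3 T-DXd-titled libraries (x axis). Points are libraries, with symbols for the replicates, and lines are group means; treated libraries lie below PBS for 8 genes, above it for TDP2, and overlap it for TOP2B.

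Residual tumors were then compared with vehicle. A gene was called when its adjusted p by edgeR's quasi-likelihood test was at or below 0.05 and its fold change was at least 1.5. TOP2A, SLFN11, PARP1, TOP1MT, TDP1 and TOP3B were called lower in P-DXd-titled tumors, where 13.8% of all genes tested were called lower. The same 6 genes were called lower in T-DXd-titled tumors (background 15.5%) and in all treated tumors (background 17.1%). By edgeR and by DESeq2, 0 of the 10 genes were called higher, where 15.2% of all genes were with all treated tumors by edgeR. TDP2 was the 1 gene that lay higher at an unadjusted p under 0.05. These comparisons share the PBS libraries. TOP1, TOP2B, TOP3A and TDP2 were not called in any of them. The median log2 fold change of the 10 genes with all treated tumors was -0.68, against -0.01 over all 15070 genes tested. In bulk tissue, fewer cells that make an RNA and less of it per cell cannot be told apart.

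The RNA of the drug target was lower but missed the fold change minimum. TOP1 (ENSG00000198900.5, chromosome 20, 39657458 to 39753127 in the tables' own coordinates) had 301, 243 and 230 CPM in PBS replicates 1 to 3. The P-DXd-titled libraries had 213, 190 and 205 CPM and those titled T-DXd 212, 207 and 200 CPM. All treated libraries lay below all PBS libraries. Its log2 fold change with all treated tumors was -0.36 (95% interval -0.55 to -0.16, adjusted p 0.00582 by edgeR), below the fold change minimum, and -0.21 without PBS replicate 1. Neither conjugate group alone passed the threshold (adjusted p 0.0700 and 0.0552). Residual tumors thus held 78.0% of the vehicle level of TOP1 RNA (95% interval of the ratio 0.681 to 0.894).

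TOP1MT (ENSG00000184428.8, chromosome 8), the mitochondrial type IB enzyme of the family, was called lower in every comparison with PBS. PBS libraries had 106, 99.8 and 86.9 CPM, P-DXd-titled libraries 61.2, 66.2 and 51.2 CPM, and T-DXd-titled libraries 54.7, 53.9 and 54.0 CPM. The treated libraries all lay below PBS. Log2 fold changes were -0.72 (SE 0.13, adjusted p 0.00815) and -0.87 (SE 0.10, adjusted p 0.00123), and -0.80 (SE 0.09) with all treated tumors. Whether the change of TOP1MT differed from that of TOP1 was not tested.

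The type II enzymes separated. TOP2A (ENSG00000131747.10, chromosome 17, 38544768 to 38574202 as listed) was 231, 150 and 139 CPM in PBS. P-DXd-titled libraries had 30.5, 33.5 and 26.4 CPM and T-DXd-titled libraries 19.7, 22.2 and 15.4 CPM. The lowest PBS library was thus 4.15 times the highest treated one. Log2 fold changes were -2.53 (SE 0.22, adjusted p 0.00151) and -3.21 (SE 0.25, adjusted p 0.000508). With all treated tumors the value was -2.84 (95% interval -3.35 to -2.33), and 0.743% of genes had a lower one. Leaving out PBS replicate 1 gave -2.56.

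TOP2B (ENSG00000077097.9, chromosome 3, 25639475 to 25706398 as listed) had 221, 215 and 224 CPM in the vehicle tumors. P-DXd-titled libraries had 236, 240 and 225 CPM, and T-DXd-titled libraries 247, 230 and 223 CPM. Treated and PBS libraries overlapped. The log2 fold change with all treated tumors was 0.06, with a 95% interval from -0.07 to 0.19 (adjusted p 0.387), which bounds a change in either direction below the fold change minimum. The ratio of TOP2A to TOP2B per kb, which does not depend on library scaling, was 1.12, 0.750 and 0.665 in PBS replicates 1 to 3. P-DXd-titled libraries had ratios of 0.126 to 0.150, and T-DXd-titled libraries of 0.0742 to 0.103. As a share of the RNA of all 6 topoisomerases per kb, TOP2A went from 17.8% ± 2.77 in PBS to 4.45% ± 0.463 and 2.88% ± 0.465. TOP2B went from 21.6% ± 2.69 to 32.2% ± 0.716 and 32.8% ± 0.754, and TOP1 from 38.2% ± 0.660 to 42.7% ± 2.48 and 44.3% ± 0.234 (SD, n = 3). A share rises when others fall, so the TOP1 share was higher while its own level was lower. The sum over the 6 genes was 165 ± 21.3 CPM per kb in PBS, against 116 ± 3.36 after P-DXd and 114 ± 3.80 after T-DXd by title.

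**Figure D2:**
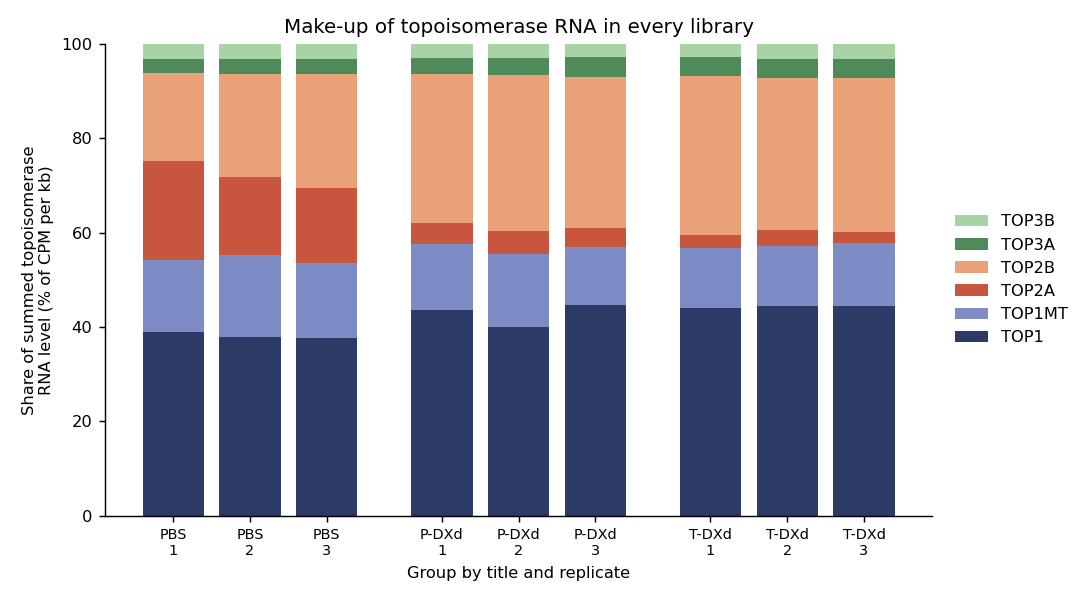
Share of each topoisomerase in the summed topoisomerase RNA (y axis, percent of CPM per kb) in every library (x axis). The TOP2A segment averages 17.8% in PBS, and 4.45% and 2.88% in the libraries titled P-DXd and T-DXd.

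Among type IA enzymes, TOP3B (ENSG00000100038.15, chromosome 22, 22311397 to 22337213 as listed), which acts on DNA and RNA, was 27.6, 22.7 and 22.1 CPM in PBS. P-DXd-titled libraries had 16.8, 16.7 and 14.6 CPM, and T-DXd-titled libraries 15.6, 16.4 and 16.3 CPM, with no overlap. Its log2 fold change with all treated tumors was -0.61 (SE 0.09, adjusted p 0.000358), just past the fold change minimum, and -0.48 without PBS replicate 1, which ended the call. TOP3A (ENSG00000177302.10, chromosome 17, 18174742 to 18218321 as listed), which works with BLM to undo joined DNA molecules, was 37.1, 33.2 and 32.5 CPM in PBS. P-DXd-titled libraries had 26.7, 27.8 and 32.2 CPM, the last close to the PBS range, and T-DXd-titled libraries had 30.0 to 30.4 CPM. The log2 fold change with all treated tumors was -0.23 (SE 0.08, adjusted p 0.0327), and it was -0.16 (adjusted p 0.115) once PBS replicate 1 was left out.

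The phosphodiesterases lay on opposite sides of PBS, TDP1 below and TDP2 above it in all 6 treated libraries. TDP1 (ENSG00000042088.9, chromosome 14, 90421283 to 90511106 as listed) had 45.0, 29.0 and 29.8 CPM in the vehicle tumors. P-DXd-titled libraries had 21.5, 23.5 and 20.7 CPM, and T-DXd-titled libraries 20.9, 19.2 and 19.7 CPM. No treated library reached the lowest PBS library, and PBS replicate 1 lay well above the other PBS libraries. Log2 fold changes of TDP1 were -0.67, -0.82 and, with all treated tumors, -0.75 (SE 0.14, adjusted p 0.000976). Without PBS replicate 1 they were -0.43, -0.57 and -0.50, all below the fold change minimum, although adjusted p stayed at 0.00778, 4.05e-05 and 0.000340. The call of TDP1 in the P-DXd-titled comparison was also lost without any 1 of the 3 P-DXd-titled libraries (adjusted p 0.0961, 0.0737 and 0.114), and that in the T-DXd-titled comparison without T-DXd-titled replicate 2 or 3 (0.0561 and 0.0566). With all treated tumors it was not lost when any 1 treated library was left out.

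TDP2 (ENSG00000111802.9, chromosome 6, 24650205 to 24667261 as listed) was 67.9, 55.8 and 60.7 CPM in PBS and 72.0 to 80.4 CPM in the treated libraries, all above PBS. Its log2 fold change with all treated tumors was 0.26 (SE 0.08, adjusted p 0.0134), below the fold change minimum, and 0.35 without PBS replicate 1. The ratio of TDP2 to TDP1 per kb was 2.99 to 4.04 in PBS and 6.07 to 7.73 in treated libraries.

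PARP1 and SLFN11, which act in the response to trapped TOP1, were both lower. PARP1 (ENSG00000143799.8, chromosome 1, 226548392 to 226595780 as listed) had 706, 571 and 546 CPM in the vehicle tumors. P-DXd-titled libraries had 372, 374 and 365 CPM, and T-DXd-titled libraries 358, 334 and 353 CPM. The treated libraries lay close together and far from PBS. Log2 fold changes were -0.72 (SE 0.12, adjusted p 0.00662) and -0.82 (SE 0.12, adjusted p 0.00293). With all treated tumors the value was -0.78, and -0.64 without PBS replicate 1.

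SLFN11 (ENSG00000172716.12, chromosome 17, 33677324 to 33700720 as listed) was 44.7, 37.8 and 35.3 CPM in PBS. The treated libraries had 17.0 to 22.8 CPM, with a median of 19.7, and none reached the PBS range. Residual tumors held 48.9% of the vehicle level (95% interval of the ratio 0.412 to 0.582, adjusted p 4.2e-05 by edgeR), and the log2 fold change was -0.91 without PBS replicate 1. SLFN11 and PARP1 remained called when any 1 of the 9 libraries was left out, as did TOP2A and TOP1MT. Without the fold change minimum, 9 of the 10 genes had an adjusted p at or below 0.05 with all treated tumors, where 55.7% of all genes did. For 9 of the 10 genes, 8 lower and 1 higher, the treated libraries fell outside the PBS range, as they did for 50.6% of all genes. These shares lie above the background, but many genes of the tumor separated in the same way.

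**Figure D3:**
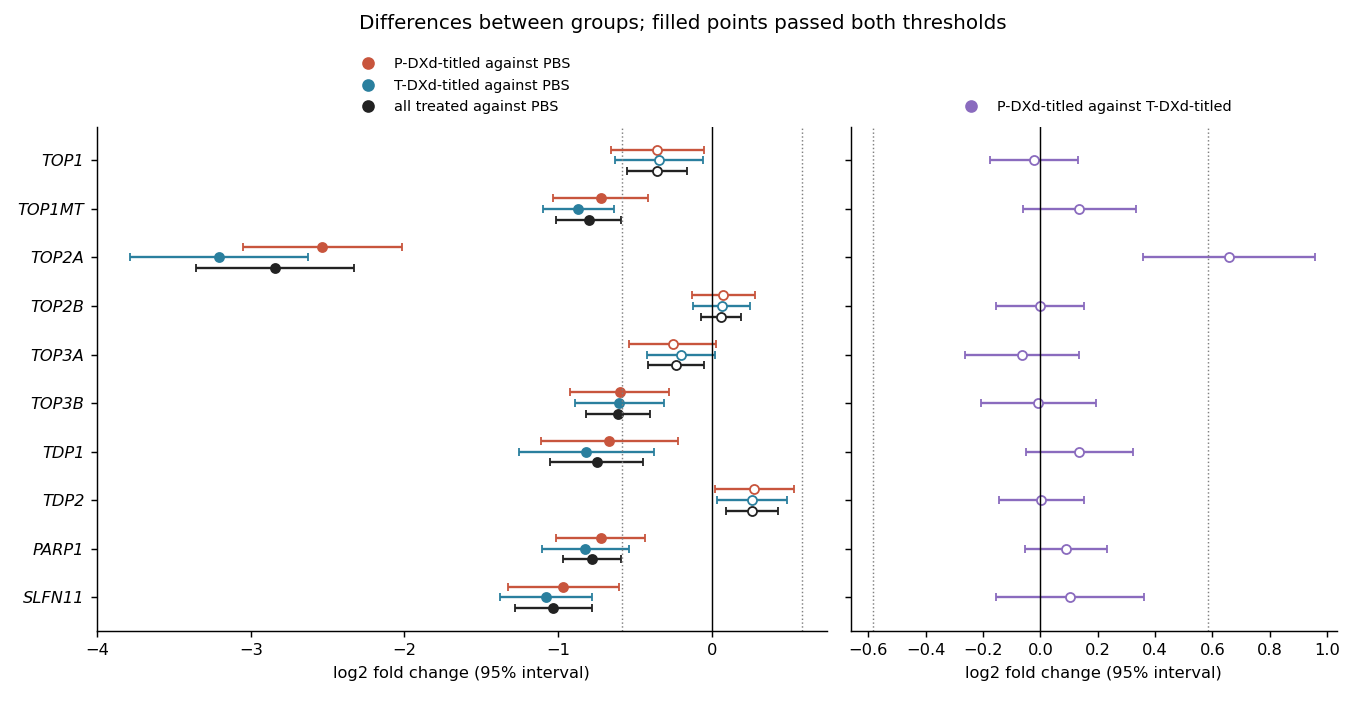
Log2 fold change (x axis) of each gene with its 95% interval, for the comparisons with PBS on the left and for P-DXd-titled against T-DXd-titled on the right. Filled points passed both thresholds, and dotted lines mark the fold change minimum of 1.5; on the right no point is filled, and TOP2A lies farthest from 0.

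**Figure D4:**
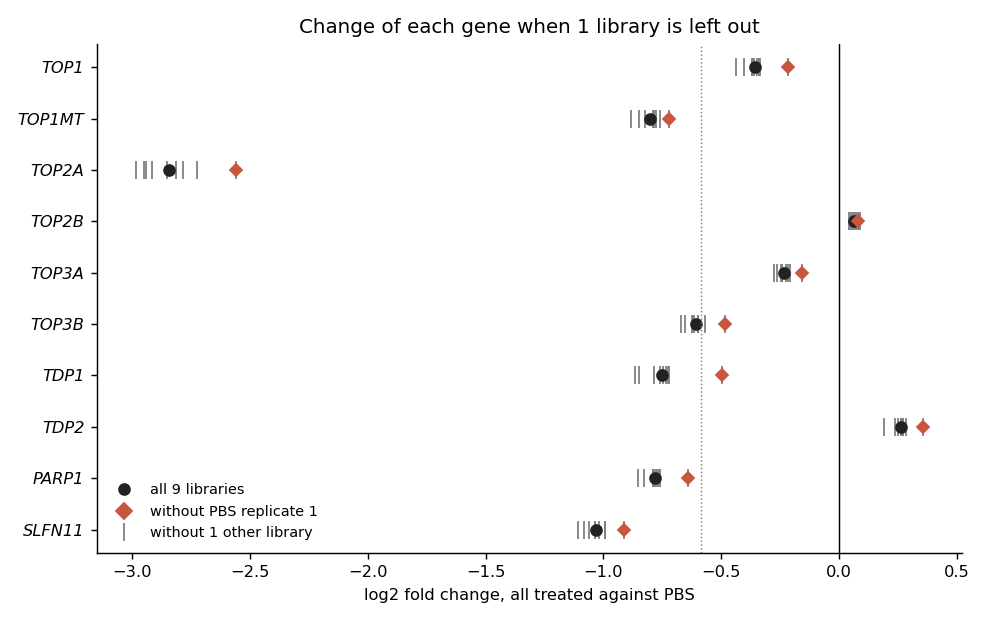
Log2 fold change of each gene for all treated tumors against PBS (x axis) with all 9 libraries (circles), without PBS replicate 1 (diamonds) and without each other library (ticks). Without PBS replicate 1, TOP3B (-0.48) and TDP1 (-0.50) lie on the near side of the dotted fold change minimum.

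The P-DXd-titled and T-DXd-titled tumors were next compared directly. By edgeR, 0 of the 10 genes were called, where 0.0273% of all genes were. An unadjusted p under 0.05 was reached by 1 of the 10, TOP2A, where 3.69% of all genes reached it. TOP2A was higher in the P-DXd-titled group in all 3 libraries against all 3, by 0.66 on the log2 scale (SE 0.13, 95% interval 0.36 to 0.96). Its adjusted p was 0.519 by edgeR and 0.000837 by DESeq2, which called it. The share of all genes that DESeq2 called in this contrast was not counted. The difference was 0.53 to 0.78 over the fits that left out 1 library. For the same contrast, the 16 proliferation genes had a median of 0.36 (0.04 to 1.41), against 0.0044 over all genes. For the other 9 genes the difference lay between -0.07 and 0.14. The widest of their 95% intervals was that of SLFN11, from -0.16 to 0.36, and the intervals of TOP1 (-0.18 to 0.13) and TOP2B (-0.15 to 0.15) were among the narrowest. For each of the 9, a difference of 1.5-fold lay outside the interval.

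Genes that act on the same lesions were then examined in lists of known members, with all treated tumors against PBS (background 17.1% lower, 15.2% higher). In single-strand break repair, 4 of 13 genes were lower (median log2 fold change -0.11). These were the flap nuclease FEN1 (-1.37), the replicative ligase LIG1 (-0.97), PARP2 (-0.88) and LIG3 (-0.64), the ligase partner of XRCC1. LIG3 and PARP2 were no longer called without PBS replicate 1. XRCC1 itself was -0.18 and the gap-filling polymerase POLB -0.11, neither of them called. The highest value in this list was 0.36, for APLF, which was not called (adjusted p 0.0825).

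Of 15 genes that strip or degrade trapped topoisomerase, 2 were lower, ACRC (-1.09, at 3.06 ± 0.429 CPM in PBS) and FAM111A (-0.68), both protease genes, and the median was 0.08. FAM111A was not called without PBS replicate 1. SPRTN, the replication-coupled protease, was 0.08, and the ubiquitin-dependent segregase VCP 0.31 (adjusted p 0.00507), below the fold change minimum.

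Among nucleases that can cut a trapped enzyme away, 5 of 11 tested were lower, with a median of -0.56. SLX1A and SLX1B, near-identical copies, were not tested. DNA2 fell from 38.1 ± 14.9 CPM in PBS to 6.13 and 5.71 CPM (-2.71), EME1 by 1.76 and EME2, SLX4 and MRE11A by 1.03, 0.88 and 0.70 on the log2 scale. RBBP8 (-0.56) and ERCC1 (-0.50) had adjusted p of 0.000162 and 0.000229 but missed the fold change minimum. RBBP8 was called lower without PBS replicate 1. MUS81, which pairs with EME1 or EME2, was -0.17.

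The type IA topoisomerases work in complexes, of which 3 of 5 partner genes were lower. BLM (-2.05), RMI2 (-1.25) and RMI1 (-0.98), the partners of TOP3A, were called, whereas TDRD3 (-0.42) and FMR1 (0.10), which bind TOP3B, were not. Of 8 condensin subunit genes, whose products compact chromosomes with TOP2A, 7 were lower (median -1.60). Among them NCAPG (-2.36), SMC4 (-2.19), NCAPH (-2.12), NCAPG2 (-1.63), NCAPD3 (-1.58), NCAPD2 (-1.20) and SMC2 (-1.06) were called, and NCAPH2 (-0.42) was not. The proliferation genes were lower in 16 of 16 cases (median -2.34), with MKI67 (-3.05), CENPF (-3.03) and PLK1 (-3.22) the lowest. TOP2A lay within the range of this list, and the other 9 genes lay above it.

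In the Schlafen family, SLFN13 was 16.2 to 17.5 CPM in PBS and 7.80 to 10.2 CPM in treated libraries (-0.89, called). SLFN12 was also called (-2.69), at 0.195 to 1.02 CPM in PBS and 0.0240 to 0.168 CPM after treatment. SLFN5 was 148, 179 and 220 CPM in PBS and 226 to 303 CPM in treated libraries (0.44, adjusted p 0.0128), below the fold change minimum. SLFN11 and SLFN13 thus fell while SLFN5 lay higher.

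**Figure D5:**
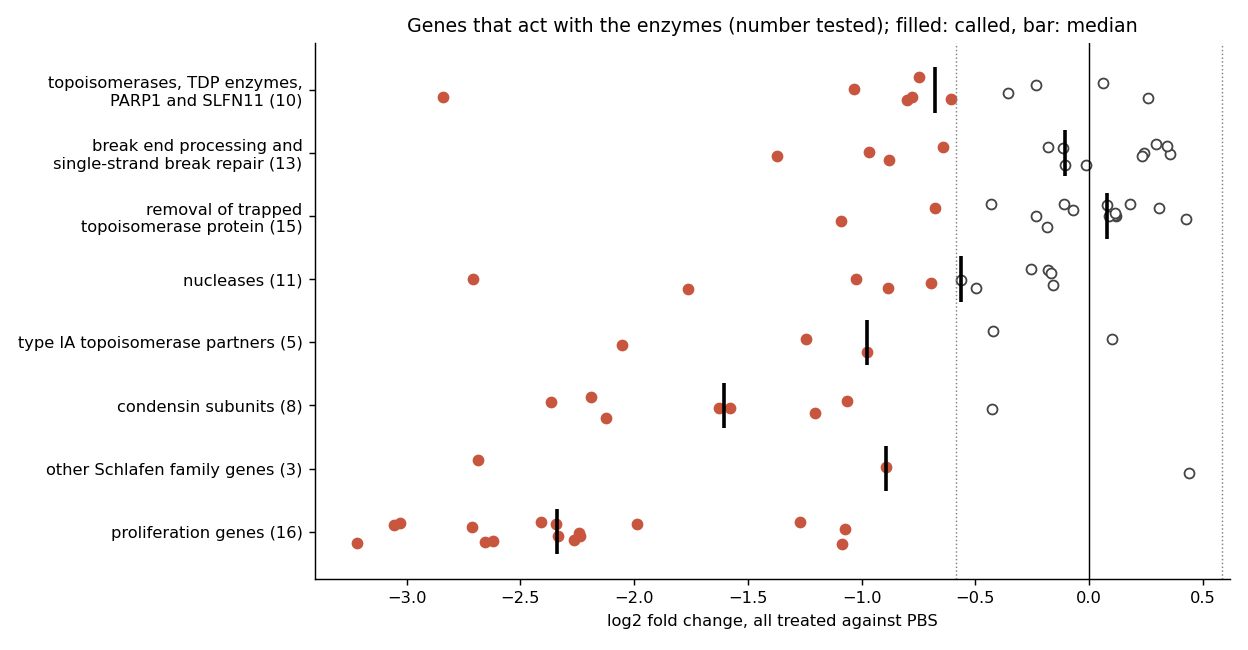
Log2 fold change (x axis) of single genes for all treated tumors against PBS, by list (y axis, number tested). Filled points were called, bars are medians, and dotted lines mark the fold change minimum; the bar lies at 0.08 for removal of trapped protein and at -2.34 for proliferation genes.

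Markers of host cells also differed between the groups. Summed over 7 macrophage and leukocyte markers, levels were 5.36 to 6.32 CPM in PBS, against 16.5 to 23.6 CPM with P-DXd and 25.6 to 36.3 CPM with T-DXd by title. With all treated tumors, 4 of 6 tested were called higher (LYZ, CSF1R, AIF1 and PTPRC), where 15.2% of all genes were. CD14 (log2 fold change 0.67) and FCGR3A (0.78) were not called. CD68, which was not tested, was at 0 in P-DXd-titled replicate 1 and T-DXd-titled replicate 2. TYROBP, MRC1 and CD163 were not among the listed genes. Summed over 10 fibroblast markers, levels were 1053 to 2020, 1233 to 2141 and 2077 to 2237 CPM. Of 9 tested, 5 were called higher (POSTN, COL3A1, PDGFRA, COL1A2 and FAP), where 15.2% of all genes were. The call of FAP was lost when P-DXd-titled replicate 2 was left out. COL1A1 (0.15), the most abundant marker at 963 ± 381 CPM in PBS, was not called. PDGFRB (0.27), DCN (1.85) and LUM (-0.20) were not called either, and THY1 was not tested. DCN was called higher without PBS replicate 1. Over 5 endothelial markers, summed levels were 4.40 to 8.20, 5.26 to 9.89 and 8.52 to 8.83 CPM. Of the 5, TEK (1.16) was the 1 called higher, where 15.2% of all genes were. CDH5 (0.51), VWF (0.49), KDR (-0.09) and TIE1 (-0.65) were not called. The muscle genes CKM, ACTA1, MYH2, MYLPF, TNNC2 and CASQ1 were all called higher, where 15.2% of all genes were. MYH2 was no longer called without PBS replicate 1. Of the 6 genes used to check the PC3 label, KRT8 (1.31) and KRT18 (0.69) were called higher, against the same 15.2%. KRT19 (0.58), EPCAM (0.56), VIM (0.03) and CD44 (-0.21) were not called. KRT19 was called higher without P-DXd-titled replicate 2. The tables do not separate mouse from human reads, and the part of host RNA in the values of the 10 genes was not tested. Without P-DXd-titled replicate 2, the same 6 genes were called lower with all treated tumors.

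The genes with the most similar pattern over the 9 libraries were sought for TOP1, TOP2A and SLFN11 among 12462 genes, by the root mean square difference of log2 CPM centered on each gene's mean. For TOP1 these were ELMSAN1 (0.0417), the stress granule protein G3BP1 (0.0419) and the RNA-binding protein ELAVL1 (0.0442). For TOP2A they were ARHGAP11A (0.0937), the centromeric histone CENPA (0.102) and PRR11 (0.112), and for SLFN11 they were RBM12B (0.0637), FRRS1 (0.0840) and the transferrin receptor TFRC (0.0840). ARHGAP11A had 115 ± 38.7 CPM in PBS, against 17.8 ± 2.62 after P-DXd and 11.6 ± 1.45 after T-DXd by title. It was picked for its closeness to TOP2A over these same libraries, so their shared order of groups is not a separate result. RBM12B went from 41.2 ± 2.55 to 21.8 ± 2.40 and 20.8 ± 1.49 CPM.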

How the data were processed

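Libraries were made with the TruSeq mRNA kit. Per the submitters' processing notes, the authors used Cutadapt 4.5, STAR 2.7.11a, featureCounts 2.0.2 and GRCh38.p13, and the deposited tables hold raw counts. Strand use and removal of mouse reads are not given in the sources used here. Listed coordinates did not match GRCh38 (44 of 15869 genes the same in GENCODE v44), so they are printed as listed. Columns left unused numbered 0. Reads could be split between TOP1 and its pseudogenes.

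Counts were tested with edgeR 4.0.16 in R 4.3.3 (TMM, filterByExpr, two-sided quasi-likelihood F test, Benjamini-Hochberg adjustment over all genes tested). The 3-against-3 comparisons used only the 6 libraries compared. Thresholds were those of the study's methods, which used DESeq2. SE is the log2 fold change over the root of F. Exon lengths came from GENCODE v44 by identifier, since the tables hold none. Whether they match the exons counted was not tested, which limits comparisons between genes per kb. Replicate pairs had a chi-square of at least 17.2 per gene, so none was a duplicate. The method was tested on simulated data.

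Genes and lists were chosen with earlier results of these data known. By rule, called list genes were named (the 3 largest falls where over 10 were called), with the 3 closest patterns (mean of at least 100 counts, prior count 2). Other genes were named after their values were seen. Alternatives were DESeq2 1.42.0, RLE size factors, glmTreat, no fold change minimum, a filter of at least 10 counts in each library or none, all 9 libraries in 1 fit, a replicate block and leaving out each library. The list counts without PBS replicate 1 or P-DXd-titled replicate 2 were added after seeing the data. Some items of these data are not reported here.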

Additional observations from a re-analysis of the deposited data

How the results depend on the processing

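Against PBS, 0 of 450 alternative values of the 10 genes changed sign. Those of glmTreat and of no fold change minimum could not, since they come from the main fit. Of the 450, 421 kept their side of the thresholds, 26 lost a call and 3 gained one. The 3 were TOP1, TOP3A and TDP2 with all treated tumors and no fold change minimum. glmTreat, which tests for a change beyond 1.5-fold, called 1 of the 10 genes in P-DXd-titled, 3 in T-DXd-titled and 4 in all treated tumors. Leaving out 1 library gave 4 to 6 called genes in P-DXd-titled, 4 to 6 in T-DXd-titled and 4 to 6 in all treated tumors, and without PBS replicate 1 the count was 4 in each. The share of all genes called was not counted for these alternatives. Their counts therefore show only how the calls depend on the processing. TOP3B was also not called in P-DXd-titled tumors without P-DXd-titled replicate 2 or 3 (adjusted p 0.0516 and 0.0726 by edgeR), in T-DXd-titled tumors without T-DXd-titled replicate 1 (log2 fold change -0.58) and in all treated tumors without P-DXd-titled replicate 3 (-0.57). A replicate block on the first digit of the animal code, which the labels do not describe as a pairing, ended 1 call against PBS, that of TOP3B in T-DXd-titled tumors (-0.58). Between the conjugate groups, DESeq2 called 1 of the 10 genes (TOP2A) and edgeR 0 under every other alternative. Values near 0 changed sign there when 1 library was left out: TOP1 ranged from -0.058 to 0.023, TOP2B from -0.032 to 0.043, TOP3B from -0.043 to 0.054 and TDP2 from -0.050 to 0.030, and TDP2 was -0.0055 with the block. The causes were not tested. p-values rest on 3 tumors per group, and depth is confounded with treatment, since every PBS library was deeper.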

Other observations

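The ratio of PARP1 to TOP1, which does not depend on library scaling, was nearly the same in the 3 vehicle tumors even though PBS replicate 1 had the highest level of each gene. Per kb it was 2.40, 2.41 and 2.44 in PBS replicates 1 to 3. In the treated libraries it was 1.79, 2.02 and 1.82 (P-DXd-titled) and 1.74, 1.66 and 1.81 (T-DXd-titled), below PBS in 6 of 6. The ratio of TOP1 to TDP1 per kb was 7.61, 9.52 and 8.76 in PBS, 11.2, 9.18 and 11.3 in P-DXd-titled and 11.5, 12.2 and 11.5 in T-DXd-titled libraries, so that P-DXd-titled replicate 2 lay within the PBS range and the other treated libraries above it.

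TOP3B kept a share of 2.77% to 3.17% of topoisomerase RNA per kb in all 9 libraries, 3.10% to 3.16% in PBS, and its log2 fold change with all treated tumors (-0.61) was close to that of the sum of the 6 genes, which went from 165 to 116 and 114 CPM per kb.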
